A study of Mus musculus with 6 samples.

Results

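Described here are the genes of the transcriptional response to low oxygen and of glycolysis in macrophages from a mouse lung tumour. The set holds 40 gene symbols, taken by symbol: 23 subunits, regulators and targets of the hypoxia-inducible factors (HIF), called the HIF list, and 17 genes of glycolysis and lactate (16 enzymes and the lactate exporter Slc16a3), called the glycolysis list. They matched 41 of the 55487 genes in each count table, because Aldoa has 2 Ensembl entries. The second Aldoa entry held 43 reads in all and did not pass the filter on low counts, so 40 of 41 entries were among the 14140 genes tested.

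C57BL/6 mice carried subcutaneous tumours of Lewis lung carcinoma, a lung cancer cell line of the same mouse strain, for 15 to 17 days. Macrophages were sorted as CD11b+ F4/80+ cells without Ly6C and Ly-6G and divided by surface MHC class II, the protein complex that shows peptides to CD4+ T cells. There were 3 libraries labelled MHC-IIhigh and 3 labelled MHC-IIlow, with no other treatment or genotype, and each carries a batch number (1, 2 or 3) equal to its replicate number. Neither the number of mice behind a library nor any pooling is stated, so the p-values here describe variation among libraries, part or all of which may be technical.

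HIF is a pair of an alpha subunit (Hif1a or Epas1 product) and the constant partner Arnt. When oxygen is present, prolyl hydroxylases mark the alpha subunit for destruction through the von Hippel-Lindau protein. When oxygen is scarce, the alpha subunit accumulates with little need for more of its mRNA, and the pair binds short hypoxia response elements in its target genes. Many targets are glucose transporters and glycolytic enzymes, so both lists overlap in biology. In tumours, macrophages far from vessels are known to take up this programme, and macrophages with low surface MHC class II have been described as enriched in such regions.

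Transcripts of MHC class II disagreed with the labels of all 6 libraries. H2-Aa, an MHC class II chain, averaged 5.52 ± 1.15 CPM (counts relative to TMM-scaled library size) in libraries labelled MHC-IIhigh and 1350 ± 172 CPM in those labelled MHC-IIlow (SD, n = 3 each), a log2 fold change of -7.93. H2-Ab1, its partner, averaged 25.6 CPM under the MHC-IIhigh label and 1570 CPM under the MHC-IIlow label. Cd74, the invariant chain, averaged 30.6 CPM under the MHC-IIhigh label and 3049 CPM under the MHC-IIlow label. All 3 passed the test as lower in the libraries labelled MHC-IIhigh. Directions below are therefore those of the labels, as labelled MHC-IIhigh over labelled MHC-IIlow, and not of the cells' own MHC class II transcripts.

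The library labelled MHC-IIlow 3 stood apart from the other 5. Nuclear rRNA took 47.3% of its reads in genes, against 3.85% to 13.5% elsewhere, and 4669283 of its reads lay outside rRNA and mitochondrial genes, against 11670849 to 17982808 in the other 5. Reads in genes numbered 15159356 to 25473051 in libraries labelled MHC-IIhigh and 10202879 to 21290781 in those labelled MHC-IIlow. The slope of log2 CPM on the GC content of transcripts, per 10 percentage points, ran from -0.47 to 0.03 in libraries labelled MHC-IIhigh, and stood at 0.21, -0.35 and 0.84 in those labelled MHC-IIlow 1, 2 and 3. Summed over the whole marker list, the 8 macrophage markers stood at 8720 to 10386 CPM in libraries labelled MHC-IIhigh and 5670 to 8779 CPM in those labelled MHC-IIlow. The 8 dendritic cell markers summed to 1.61 to 2.14 CPM under the MHC-IIhigh label and 12.1 to 23.7 CPM under the MHC-IIlow label. Of their 4 tested members 2 were called lower in the libraries labelled MHC-IIhigh, against 0.354% of all tested genes. The 7 monocyte markers summed to 266 to 378 CPM under the MHC-IIhigh label and 345 to 941 CPM under the MHC-IIlow label. The 8 neutrophil markers summed to 110 to 180 CPM under the MHC-IIhigh label and 141 to 560 CPM under the MHC-IIlow label, with Ly6g and Camp at 0 in all libraries. Monocyte and neutrophil sums overlapped between the labels. The 8 epithelial markers, which carcinoma cells may carry, summed to 15.0 to 21.7 CPM under the MHC-IIhigh label and 41.0 to 42.7 CPM under the MHC-IIlow label. Of their 3 tested members 1 was called lower, against the same 0.354% of all tested genes. Cldn4 and Cldn7 stood at 0 in all libraries and Epcam at 0 in those labelled MHC-IIhigh. Sums over 8 fibroblast markers, 72.6 to 411 CPM under the MHC-IIhigh label and 130 to 599 CPM under the MHC-IIlow label, overlapped between the labels. So did those over 6 endothelial markers, 16.3 to 20.6 CPM under the MHC-IIhigh label and 13.1 to 21.4 CPM under the MHC-IIlow label. T and NK cell, B cell and erythroid markers summed to at most 2.68 CPM in any library, with Cd3e, Cd3d and Cd8a at 0 throughout. The part of these markers, of rRNA and of GC content in the values below was not tested, apart from the fits with a GC offset and without libraries that are given beside them.

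No member of the HIF list and none of the glycolysis list was called between the labels by edgeR's quasi-likelihood test at a Benjamini-Hochberg adjusted p of 0.05. Over all tested genes, 0.0919% were called higher and 0.354% lower in the libraries labelled MHC-IIhigh. At an unadjusted p under 0.05 stood 2 higher and 2 lower of the 23 HIF members (Ankrd37 and P4ha1, Ddit4 and Ndrg1), and 0 higher and 1 lower of the 17 glycolysis members (Aldoc), against 574 higher and 1130 lower of all genes. Limma-voom also called no member, against 0.0707% of all genes called higher and 0.297% lower. DESeq2 called Ankrd37 higher (adjusted p = 0.0185) and Ddit4 (0.013) and Aldoc (0.00744) lower, against 0.856% of all genes called higher and 1.96% lower.

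Ankrd37, a HIF target that encodes an ankyrin repeat protein, had the largest positive fold change of the 40 members. It stood at 27.2, 26.2 and 28.6 CPM in libraries labelled MHC-IIhigh 1, 2 and 3, against 9.16, 17.2 and 13.2 CPM in those labelled MHC-IIlow. The libraries did not overlap between the labels, and those labelled MHC-IIhigh lay within a narrow range. The log2 fold change was 1.05 (SE 0.25, edgeR adjusted p = 0.175), and the log2 ratios within batches 1, 2 and 3 were 1.57, 0.61 and 1.11. Ankrd37 (chromosome 8, 45996902 to 46005707, minus strand) overlaps Ufsp2 on the opposite strand, which held 6543 reads against 2543 for Ankrd37 over all libraries. Whether reads of the pair were told apart is not known, since the strand setting of the counting is not given. Ufsp2 itself averaged 60.9 CPM under the MHC-IIhigh label and 44.4 CPM under the MHC-IIlow label, a log2 fold change of 0.45, and of 0.06 with the GC offset described below.

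Ddit4, also known as REDD1, an inhibitor of mTORC1 that HIF and stress signals switch on, had the largest negative fold change. It stood at 11.6, 9.85 and 9.69 CPM in libraries labelled MHC-IIhigh, against 19.1, 19.1 and 44.6 CPM in those labelled MHC-IIlow. All 3 libraries labelled MHC-IIlow lay above all 3 labelled MHC-IIhigh, and the library labelled MHC-IIlow 3 lay far above the others. The log2 fold change was -1.39 (SE 0.35, edgeR adjusted p = 0.194), and -0.88 (adjusted p = 0.116) without the library labelled MHC-IIlow 3. Within batches 1, 2 and 3 the log2 ratios were -0.72, -0.96 and -2.20.

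Aldoc, the aldolase isozyme best known from brain, was the glycolysis member with the smallest adjusted p. It stood at 8.90, 9.18 and 8.40 CPM in libraries labelled MHC-IIhigh, against 18.1, 14.3 and 25.3 CPM in those labelled MHC-IIlow. The sets did not overlap, and the libraries labelled MHC-IIhigh again varied little. The log2 fold change was -1.11 (SE 0.25, edgeR adjusted p = 0.144), and the ratios within batches 1, 2 and 3 were -1.02, -0.64 and -1.59. In bulk libraries such as these, fewer cells that carry a transcript and less of it per cell cannot be told apart.

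The 3 genes kept their direction in every alternative tried, and their side of the threshold changed in some. With an offset that takes each library's trend over GC content out of the fit, Ankrd37 was called higher (log2 fold change 1.16, adjusted p = 0.0446) and Aldoc lower (-0.89, adjusted p = 0.0244), while Ddit4 was not called (-0.79, adjusted p = 0.0842). Background calls in that fit were 1.05% higher and 1.47% lower. With the batch number as a block and no GC offset, none was called, with adjusted p of 0.272, 0.296 and 0.301 for Ankrd37, Aldoc and Ddit4 against 0.00707% of all genes called higher and 0.283% lower. With block and GC offset together, Ankrd37 (adjusted p = 0.0243), Ddit4 (0.0274) and Aldoc (0.0205) were called, against 1.62% of all genes called higher and 2.59% lower. Without the library labelled MHC-IIlow 2, the same 3 genes and Bnip3 (log2 fold change 1.00, adjusted p = 0.0378) were called, against 1.71% of all genes called higher and 5.45% lower. Without a filter on low counts the 3 were called as well, against 0.416% of all genes called higher and 1.6% lower. No member was called without the library labelled MHC-IIlow 3 (0.101% of all genes called higher and 0.369% lower) or without batch 3 (0.0% and 0.193%).

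**Figure D1:**
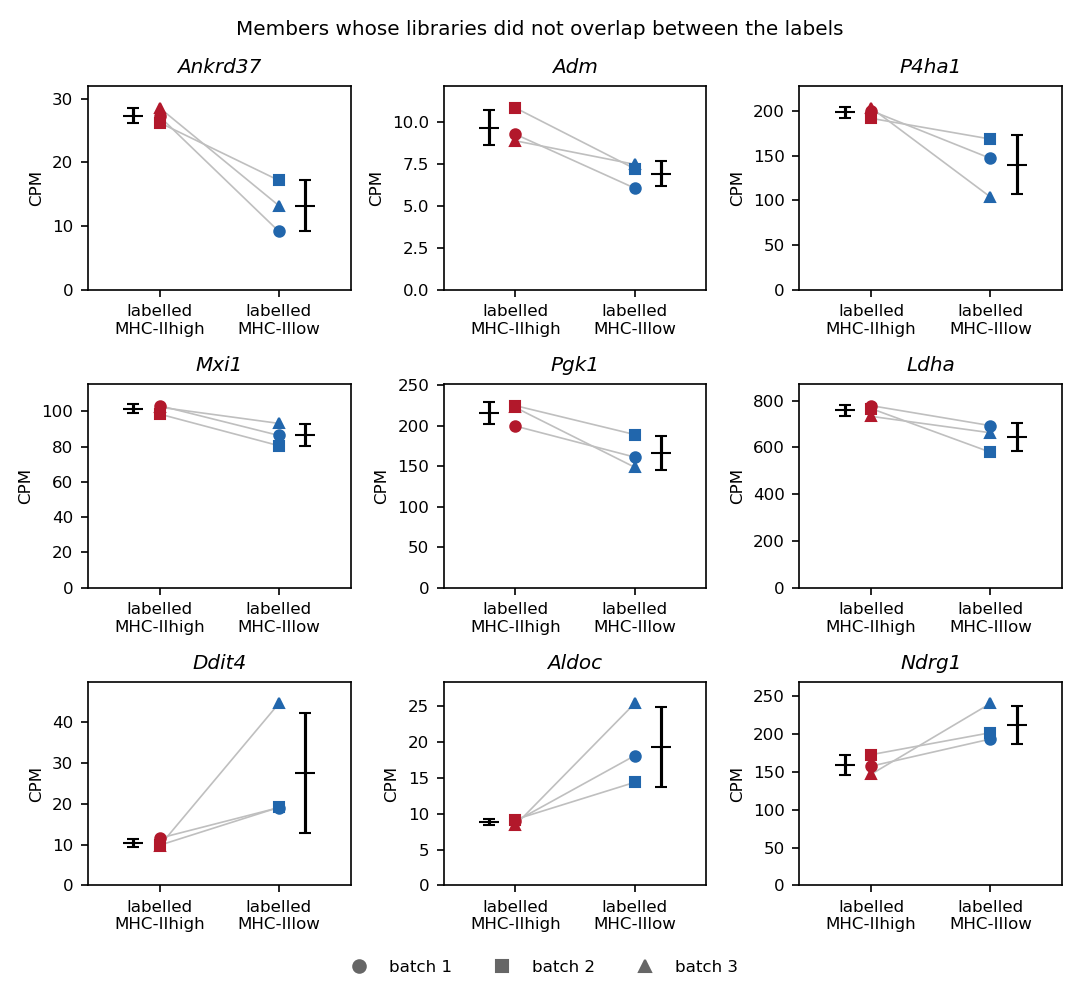
CPM in each library of the 9 members whose libraries did not overlap between the labels, labelled MHC-IIhigh on the left and labelled MHC-IIlow on the right of each panel. Symbols are single libraries, shapes are batches, grey lines join libraries of a batch and black bars are mean ± SD (n = 3). Ankrd37 lay between 26.2 and 28.6 CPM in libraries labelled MHC-IIhigh and at most at 17.2 CPM in those labelled MHC-IIlow.

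The windows around the transcription starts of 5 members are shown because HIF is known to bind such stretches in its targets. They are Ankrd37, Ddit4 and Aldoc, the members called by DESeq2, and Pgk1 and Ldha, the glycolytic genes whose libraries lay higher without overlap. Bnip3, called only without the library labelled MHC-IIlow 2, is not shown. Each window runs from 250 bases before the start to 50 bases from it on, 300 bases in all, from RefSeq on GRCm38.p6 and read 5′ to 3′ along the gene. Capitals mark each ACGTG or GCGTG, the core of the hypoxia response element, on either strand, so that CACGT and CACGC are the same cores read from the other strand. They lie at chr8:45999801-46000100 (minus strand) for Ankrd37, chr10:59951721-59952020 (minus) for Ddit4, chr11:78322823-78323122 (plus) for Aldoc, chrX:106186850-106187149 (plus) for Pgk1 and chr7:46845554-46845853 (plus) for Ldha.
Ankrd37: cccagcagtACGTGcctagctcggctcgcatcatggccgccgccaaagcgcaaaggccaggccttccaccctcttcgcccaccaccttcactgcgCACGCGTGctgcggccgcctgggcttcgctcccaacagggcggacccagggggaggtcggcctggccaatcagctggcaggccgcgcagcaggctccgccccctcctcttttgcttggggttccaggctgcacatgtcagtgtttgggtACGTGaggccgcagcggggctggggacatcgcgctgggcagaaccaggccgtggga
Ddit4: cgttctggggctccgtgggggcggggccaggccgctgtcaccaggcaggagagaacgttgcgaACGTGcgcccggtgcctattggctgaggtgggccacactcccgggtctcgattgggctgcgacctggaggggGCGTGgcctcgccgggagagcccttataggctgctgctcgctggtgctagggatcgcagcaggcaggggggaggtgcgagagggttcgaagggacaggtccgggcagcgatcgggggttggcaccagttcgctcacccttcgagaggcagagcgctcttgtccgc
Aldoc: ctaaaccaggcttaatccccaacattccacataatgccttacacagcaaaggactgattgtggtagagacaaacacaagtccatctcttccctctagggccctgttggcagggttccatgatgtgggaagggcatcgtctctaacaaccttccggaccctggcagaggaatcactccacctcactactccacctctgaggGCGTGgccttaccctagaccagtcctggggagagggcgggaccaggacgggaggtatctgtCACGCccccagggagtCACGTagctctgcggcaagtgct
Pgk1: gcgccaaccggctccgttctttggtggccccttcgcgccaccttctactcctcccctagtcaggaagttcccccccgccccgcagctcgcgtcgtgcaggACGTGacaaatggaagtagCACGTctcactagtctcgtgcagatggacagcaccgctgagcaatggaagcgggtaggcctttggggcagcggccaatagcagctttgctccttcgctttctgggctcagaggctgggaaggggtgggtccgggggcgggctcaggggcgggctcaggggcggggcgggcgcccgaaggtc
Ldha: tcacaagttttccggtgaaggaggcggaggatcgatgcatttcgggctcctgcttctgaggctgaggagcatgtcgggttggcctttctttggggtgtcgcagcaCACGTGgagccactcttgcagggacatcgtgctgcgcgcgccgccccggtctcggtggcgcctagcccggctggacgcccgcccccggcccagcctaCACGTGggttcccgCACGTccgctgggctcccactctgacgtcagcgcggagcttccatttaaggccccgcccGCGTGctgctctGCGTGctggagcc

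These windows held 4 cores in Ankrd37, 2 in Ddit4, 3 in Aldoc, 2 in Pgk1 and 7 in Ldha. A palindromic CACGTG counts as 2 cores, 1 on each strand, and the Ldha window holds 2 such stretches. Aldoc and Ldha each have a second start window, not shown, with 1 core for Aldoc and 2 for Ldha. Windows were given for 37 of the 40 symbols, and for Epas1, Ndrg1 and Bhlhe40 none was used. A core was found in 23 of 27 windows of the HIF list (85.2%) and 22 of 28 windows of the glycolysis list (78.6%), against 43.8% of all 32851 windows. By gene, all 20 HIF members with a window and 15 of 17 glycolysis members held a core, the exceptions being Gpi1 and Tpi1. Counted apart, ACGTG stood in 18 of 27 HIF windows, 14 of 28 glycolysis windows and 19.6% of all windows, and GCGTG in 16 of 27, 14 of 28 and 32.4%. The E-box CACGTG, which contains ACGTG on both strands, stood in 14.8% of HIF windows, 7.14% of glycolysis windows and 7.15% of all windows. Median GC content was 66.0% for HIF windows, 60.2% for glycolysis windows and 52.7% for all windows. Genes on either side of the comparison carried cores, since Ddit4 and Aldoc held them as did Ankrd37, Pgk1 and Ldha. A match describes the letters only.

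Among the HIF subunits, Hif1a was the prevailing alpha subunit. It stood at 452, 441 and 540 CPM in libraries labelled MHC-IIhigh and 412, 445 and 252 CPM in those labelled MHC-IIlow. The sets overlapped, with the library labelled MHC-IIlow 3 as the lowest, and the log2 fold change of 0.37 had a standard error of 0.24 (adjusted p = 0.5 by edgeR). It was 0.15 without that library and 0.11 with the GC offset. Epas1, which encodes HIF-2alpha, stood at 3.06, 1.38 and 2.15 CPM in libraries labelled MHC-IIhigh, against 2.40, 0.53 and 3.21 CPM in those labelled MHC-IIlow, also with overlap. Per length of exon, Hif1a held 99.5 ± 0.20% of the summed level of the pair in libraries labelled MHC-IIhigh and 99.3 ± 0.60% in those labelled MHC-IIlow (SD, n = 3 each). Arnt, the constant partner and no member, stood at 74.9, 73.1 and 79.7 CPM in libraries labelled MHC-IIhigh, against 60.4, 61.0 and 60.5 CPM in those labelled MHC-IIlow, which did not overlap, with an adjusted p of 0.431 by edgeR.

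The oxygen sensors and a feedback gene had close means under both labels. Egln1 and Egln3 encode prolyl hydroxylases that mark the alpha subunit. Egln1 stood at 93.6, 81.7 and 91.9 CPM in libraries labelled MHC-IIhigh, against 93.9, 86.1 and 94.6 CPM in those labelled MHC-IIlow. Egln3 stood at 70.2, 96.0 and 96.7 CPM in libraries labelled MHC-IIhigh, against 73.2, 110.3 and 92.3 CPM in those labelled MHC-IIlow. Cited2, which competes with HIF for the coactivators CBP and p300, averaged 34.0 ± 0.863 CPM under the MHC-IIhigh label and 35.5 ± 9.45 CPM under the MHC-IIlow label. Their log2 fold changes lay between -0.07 and -0.04, with standard errors of 0.16 to 0.23, and the libraries overlapped for each.

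Of the members whose libraries did not overlap, 3 further HIF targets lay higher under the MHC-IIhigh label. P4ha1, an alpha subunit of collagen prolyl 4-hydroxylase, stood at 201, 192 and 204 CPM in libraries labelled MHC-IIhigh, against 147, 169 and 104 CPM in those labelled MHC-IIlow. Adm, the vasodilator peptide adrenomedullin, stood at 9.29, 10.9 and 8.90 CPM in libraries labelled MHC-IIhigh, against 6.07, 7.24 and 7.50 CPM in those labelled MHC-IIlow. Mxi1, a partner of Max that opposes Myc, stood at 103, 98.5 and 102 CPM in libraries labelled MHC-IIhigh, against 86.3, 80.5 and 93.2 CPM in those labelled MHC-IIlow. Their log2 fold changes were 0.50, 0.49 and 0.23, with edgeR adjusted p of 0.405, 0.42 and 0.51, and each was higher in all 3 batches. With the GC offset Mxi1 stood at 0.08, and its GC-adjusted CPM overlapped between the labels. Ndrg1, a stress-induced gene named for its place downstream of N-Myc, lay on the other side at 157, 173 and 147 CPM in libraries labelled MHC-IIhigh, against 193, 202 and 240 CPM in those labelled MHC-IIlow (log2 fold change -0.41, adjusted p = 0.406). Together with Ankrd37 and Ddit4 this makes 4 HIF members higher and 2 lower without overlap, of 23, beside 10.5% and 9.48% of all tested genes.

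Targets that act on mitochondria, chromatin and protein folding had positive fold changes with overlapping libraries. Bnip3, a receptor for the removal of mitochondria, stood at 192, 236 and 242 CPM in libraries labelled MHC-IIhigh, against 134, 205 and 93.7 CPM in those labelled MHC-IIlow (log2 fold change 0.63, SE 0.28, adjusted p = 0.42 by edgeR). Kdm3a, a histone demethylase, stood at 104, 118 and 127 CPM in libraries labelled MHC-IIhigh, against 88.7, 113 and 62.3 CPM in those labelled MHC-IIlow. Pdk1, a kinase that inhibits pyruvate dehydrogenase, stood at 109, 131 and 126 CPM in libraries labelled MHC-IIhigh, against 93.7, 115 and 70.7 CPM in those labelled MHC-IIlow. Both had the library labelled MHC-IIlow 3 as the lowest of all, as did Bnip3, P4ha1 and the oxidase Ero1l, which serves disulfide formation. Ero1l averaged 220 ± 35.7 CPM under the MHC-IIhigh label and 170 ± 38.9 CPM under the MHC-IIlow label. Higd1a, a mitochondrial protein of the respiratory chain, averaged 19.6 ± 2.84 CPM under the MHC-IIhigh label and 16.8 ± 1.46 CPM under the MHC-IIlow label. Of these 5 genes the log2 fold changes without the library labelled MHC-IIlow 3 were 0.40 for Bnip3, 0.20 for Kdm3a, 0.22 for Pdk1, 0.25 for Ero1l and 0.29 for Higd1a, against 0.63, 0.40, 0.39, 0.37 and 0.23 with it.

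Of the 7 remaining HIF targets 5 had negative fold changes, and the libraries of all 7 overlapped. Slc2a1, the glucose transporter GLUT1, stood at 349, 248 and 216 CPM in libraries labelled MHC-IIhigh, against 302, 199 and 510 CPM in those labelled MHC-IIlow. Within batches 1 and 2 it was higher under the MHC-IIhigh label, with log2 ratios of 0.21 and 0.32, and within batch 3 lower, at -1.24. The pooled log2 fold change of -0.31 (SE 0.35, adjusted p = 0.647 by edgeR) became 0.11 without the library labelled MHC-IIlow 3. Bhlhe40, a repressor linked to the circadian clock, averaged 223 ± 31.1 CPM under the MHC-IIhigh label and 287 ± 107 CPM under the MHC-IIlow label. Hilpda, an inhibitor of lipid droplet breakdown, averaged 53.1 ± 3.45 CPM under the MHC-IIhigh label and 63.6 ± 20.98 CPM under the MHC-IIlow label. For both genes the library labelled MHC-IIlow 3 was the highest of the 6. Pfkfb4 and Pfkfb3 set the level of an activator of phosphofructokinase. Pfkfb4 stood at 36.6, 26.5 and 27.7 CPM in libraries labelled MHC-IIhigh, against 46.9, 25.2 and 54.3 CPM in those labelled MHC-IIlow. Pfkfb3 stood at 142, 152 and 151 CPM in libraries labelled MHC-IIhigh, against 136, 122 and 165 CPM in those labelled MHC-IIlow. Both were also highest in the library labelled MHC-IIlow 3. Car9, the cell-surface carbonic anhydrase widely used as a marker of hypoxic tumour cells, averaged 3.07 ± 0.344 CPM under the MHC-IIhigh label and 3.504 ± 0.830 CPM under the MHC-IIlow label. P4ha2, the sister of P4ha1, stood at 15.9, 13.2 and 12.8 CPM in libraries labelled MHC-IIhigh, against 15.4, 8.30 and 11.6 CPM in those labelled MHC-IIlow.

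Over the whole HIF list, 13 fold changes were positive and 10 negative, with a median of 0.21 against -0.02 over all tested genes. The median of log2 ratios within batches 1, 2 and 3 was 0.21, 0.07 and 0.07. Summed over the list, 2626, 2570 and 2727 CPM lay in libraries labelled MHC-IIhigh and 2383, 2433 and 2609 CPM in those labelled MHC-IIlow, so the sums overlapped, the lowest labelled MHC-IIhigh being under the highest labelled MHC-IIlow. Total-count scaling in place of TMM moved the median of all genes to 0.25 and that of the list to 0.53, with 20 positive and 3 negative. Leaving out the library labelled MHC-IIlow 2 gave a median of 0.064, the library labelled MHC-IIhigh 3 0.10 and the library labelled MHC-IIhigh 1 0.13. The library labelled MHC-IIlow 3 was the highest of the 6 for 11 of the 23 members (47.8%), against 36.8% of all tested genes. Per length, the list's genes stood at a median percentile of 84.9 among all tested genes (9.62 to 98.1), with Slc2a1, Bnip3 and Hif1a as the highest and Epas1, Car9 and P4ha2 as the lowest.

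**Figure D2:**
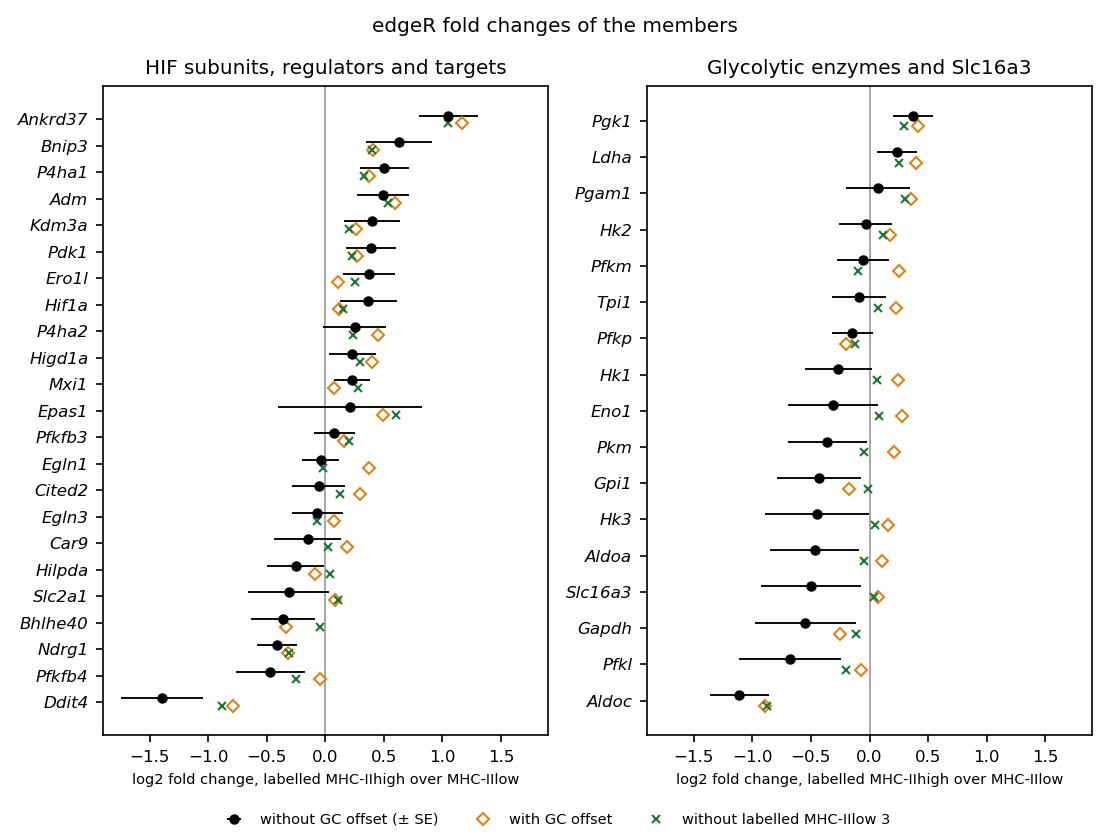
Log2 fold change, labelled MHC-IIhigh over labelled MHC-IIlow, of each member of the HIF list (left) and the glycolysis list (right). Black points are the edgeR fit with bars of ± 1 SE, open diamonds the fit with a GC offset and crosses the fit without the library labelled MHC-IIlow 3. Ankrd37 at 1.05, Ddit4 at -1.39 and Aldoc at -1.11 lay outermost in all 3 fits, while most glycolysis members at negative values moved to near or above 0 in the other fits.

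The glycolytic enzymes were among the most abundant transcripts per length. CPM per kilobase of exon averaged 357 ± 96.9 for Aldoa in libraries labelled MHC-IIhigh and 493 ± 244 in those labelled MHC-IIlow (SD, n = 3 each). Pkm, pyruvate kinase, followed with 310 ± 79.1 under the MHC-IIhigh label and 398 ± 164 under the MHC-IIlow label. Gapdh had 228 ± 68.4 under the MHC-IIhigh label and 334 ± 182 under the MHC-IIlow label. Ldha, a lactate dehydrogenase subunit, had 229 ± 7.16 under the MHC-IIhigh label and 195 ± 17.8 under the MHC-IIlow label. The SDs describe spread between libraries and not the order of genes within a library. Aldoa lay above Pkm and Pkm above Gapdh in each library, while Gapdh and Ldha changed places between libraries. The list's median percentile among all tested genes was 94.3, from 43.3 for Pfkm to 99.7 for Aldoa.

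**Figure D3:**
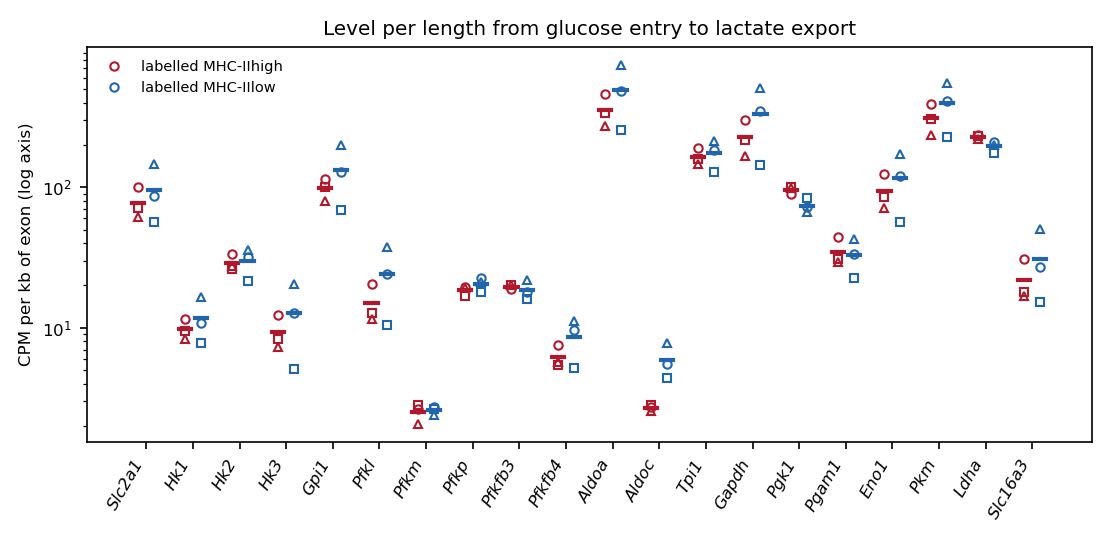
CPM per kilobase of exon, on a log axis, of 20 members from the glucose transporter Slc2a1 to the lactate exporter Slc16a3, in the order of the pathway. Red marks are libraries labelled MHC-IIhigh, blue marks libraries labelled MHC-IIlow, shapes are batches and short lines the means of 3. Aldoa, Pkm, Gapdh and Ldha stood highest, and Pfkm and Aldoc lowest.

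Steps from hexokinase to aldolase had overlapping libraries, apart from Aldoc. Hexokinases trap glucose as glucose 6-phosphate. Hk2 stood at 200, 157 and 164 CPM in libraries labelled MHC-IIhigh and 192, 128 and 213 CPM in those labelled MHC-IIlow. Hk1 stood at 97.9, 80.5 and 70.6 CPM in libraries labelled MHC-IIhigh, against 92.3, 66.5 and 142 CPM in those labelled MHC-IIlow. Hk3, the isozyme of myeloid cells, stood at 45.0, 30.7 and 27.0 CPM in libraries labelled MHC-IIhigh, against 47.3, 18.8 and 75.1 CPM in those labelled MHC-IIlow. In libraries labelled MHC-IIlow each hexokinase was lowest in replicate 2 and highest in replicate 3, with the libraries labelled MHC-IIhigh between them. Gpi1, glucose 6-phosphate isomerase, stood at 739, 652 and 514 CPM in libraries labelled MHC-IIhigh, against 830.3, 446 and 1292 CPM in those labelled MHC-IIlow, with log2 ratios of -0.17, 0.55 and -1.33 within batches 1, 2 and 3.

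Phosphofructokinase is a tetramer built from liver, muscle and platelet type subunits. Pfkl, the liver type, stood at 137, 85.5 and 77.4 CPM in libraries labelled MHC-IIhigh, against 160, 69.5 and 253 CPM in those labelled MHC-IIlow. Pfkp, the platelet type, stood at 262, 224 and 259 CPM in libraries labelled MHC-IIhigh, against 303, 239 and 283 CPM in those labelled MHC-IIlow. Pfkm, the muscle type, stood at 8.79, 9.36 and 6.86 CPM in libraries labelled MHC-IIhigh, against 9.06, 8.79 and 8.03 CPM in those labelled MHC-IIlow. Pfkl thus varied more between libraries of a label than Pfkp or Pfkm. Pfkm (990 reads) overlaps Senp1 on the opposite strand (4334 reads), and Pfkp (30112 reads) overlaps Pitrm1 on the opposite strand (5474 reads). Whether reads of either strand were told apart there is not known, since the strand setting of the counting is not given. Pkm (184213 reads) overlaps the gene model Gm49759 on the same strand (12594 reads). Near-identical copies of glycolytic genes held few reads, of which Ldha-ps2 had the most in libraries labelled MHC-IIhigh (75, against 34 in those labelled MHC-IIlow). Reads that aligned to several places were not counted, so these counts cannot show how many reads the copies and the genes share.

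Shares of isozymes, taken per length of exon, overlapped between the labels for all but Aldoa. Hk2 made up 60.7 ± 2.72% of the hexokinase level in libraries labelled MHC-IIhigh and 56.4 ± 6.78% in those labelled MHC-IIlow. Hk3 made up 19.1 ± 2.19% under the MHC-IIhigh label and 22.0 ± 6.66% under the MHC-IIlow label, and Hk1 made up 20.2 ± 1.08% under the MHC-IIhigh label and 21.6 ± 1.96% under the MHC-IIlow label. Hk2 held the largest share in each library. Pfkp made up 52.0 ± 6.44% under the MHC-IIhigh label and 46.0 ± 11.7% under the MHC-IIlow label of the phosphofructokinase level. Pfkl made up 41.0 ± 6.58% under the MHC-IIhigh label and 48.0 ± 14.0% under the MHC-IIlow label, and Pfkm made up 7.01 ± 1.42% under the MHC-IIhigh label and 5.98 ± 2.34% under the MHC-IIlow label. For these 6 isozymes the SD was larger under the MHC-IIlow label. Aldoa made up 99.2 ± 0.18% under the MHC-IIhigh label and 98.7 ± 0.36% under the MHC-IIlow label of the aldolase level. That share did not overlap, with an exact permutation p of 0.1, the smallest that 3 against 3 allows, and 0.733 when adjusted over 11 shares. Pfkfb3 made up 76.0 ± 3.97% under the MHC-IIhigh label and 69.0 ± 5.82% under the MHC-IIlow label of its pair with Pfkfb4. P4ha1 made up 95.6 ± 0.50% under the MHC-IIhigh label and 94.5 ± 2.04% under the MHC-IIlow label of its pair with P4ha2. Egln1 made up 43.2 ± 5.76% under the MHC-IIhigh label and 42.8 ± 6.07% under the MHC-IIlow label of its pair with Egln3. No adjusted exact p lay under 0.733, and this design cannot reach 0.05.

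In the lower part of the pathway Pgk1 and Ldha lay higher without overlap under the MHC-IIhigh label. Pgk1, phosphoglycerate kinase and the first step that yields ATP, stood at 200, 225 and 222 CPM in libraries labelled MHC-IIhigh, against 161, 189 and 149 CPM in those labelled MHC-IIlow. The log2 fold change was 0.37 (SE 0.17, adjusted p = 0.422 by edgeR), and the ratios within batches 1, 2 and 3 were 0.31, 0.25 and 0.58. Ldha stood at 779, 766 and 733 CPM in libraries labelled MHC-IIhigh, against 693, 580 and 663 CPM in those labelled MHC-IIlow, with a log2 fold change of 0.24 (SE 0.17, adjusted p = 0.522) and ratios of 0.17, 0.40 and 0.15. Both were higher in all 3 batches, and Aldoc was the glycolysis member lower in all 3 without overlap. This makes 2 of 17 higher and 1 lower, beside the 10.5% and 9.48% of all tested genes.

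Their neighbours in the pathway followed another pattern in CPM without GC adjustment. Gapdh, glyceraldehyde 3-phosphate dehydrogenase, stood at 1245, 899 and 685 CPM in libraries labelled MHC-IIhigh and 1445, 595 and 2098 CPM in those labelled MHC-IIlow. Pkm stood at 1958, 1528 and 1169 CPM in libraries labelled MHC-IIhigh, against 2055, 1140 and 2780 CPM in those labelled MHC-IIlow. Eno1, enolase, stood at 666, 457 and 384 CPM in libraries labelled MHC-IIhigh, against 643, 306 and 922 CPM in those labelled MHC-IIlow. For all 3 genes the libraries labelled MHC-IIlow 2 and 3 were the lowest and the highest of the 6. Aldoa stood at 1345, 978 and 791 CPM in libraries labelled MHC-IIhigh, against 1409.7, 738 and 2158 CPM in those labelled MHC-IIlow. Tpi1, triose phosphate isomerase, averaged 455 ± 62.5 CPM under the MHC-IIhigh label and 485 ± 119 CPM under the MHC-IIlow label. Both genes were again lowest and highest in the libraries labelled MHC-IIlow 2 and 3. Pgam1, phosphoglycerate mutase, averaged 68.9 ± 16.5 CPM under the MHC-IIhigh label and 65.7 ± 20.4 CPM under the MHC-IIlow label. Slc16a3, the lactate exporter MCT4, stood at 164, 95.2 and 88.8 CPM in libraries labelled MHC-IIhigh, against 144, 81.3 and 269 CPM in those labelled MHC-IIlow. Gapdh, often taken as a constant reference gene, varied over a wider range among libraries labelled MHC-IIlow than between the label means. In GC-adjusted CPM, Tpi1, Eno1 and Pkm lay higher without overlap under the MHC-IIhigh label, as did Pgk1 and Ldha, beside 13.8% of all tested genes. Gapdh, Aldoa and Pgam1 still overlapped.

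Over the glycolysis list, 3 fold changes were positive and 14 negative, with a median of -0.31 against -0.02 over all tested genes. This direction changed with the libraries kept and with the scaling or offset used, and the part of each was not tested. With the GC offset and all 6 libraries the median was 0.18, with 12 positive and 5 negative, against 0.01 for all tested genes. The library labelled MHC-IIlow 3 was the highest of the 6 libraries for 12 of 17 members (70.6%), against 36.8% of all tested genes. The library labelled MHC-IIlow 2 was the lowest for 13 of 17 (76.5%), against 15.6%. Without the library labelled MHC-IIlow 3 the median was 0.04, with 9 positive and 8 negative, and without batch 3 it was 0.15. Leaving out the library labelled MHC-IIlow 2 gave -0.60, the library labelled MHC-IIhigh 1 -0.52 and the library labelled MHC-IIhigh 3 -0.17. Within batches 1, 2 and 3 the median log2 ratio was -0.04, 0.30 and -1.25, and 8, 15 and 2 of the 17 members were higher under the MHC-IIhigh label. Total-count scaling gave a median of 0.14, with 13 positive and 4 negative and the median of all genes at 0.25. Summed over the list, 8470, 6695 and 5662 CPM lay in libraries labelled MHC-IIhigh, against 8781, 5021 and 12005 CPM in those labelled MHC-IIlow, so the libraries labelled MHC-IIlow held the lowest and the highest sum.

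**Figure D4:**
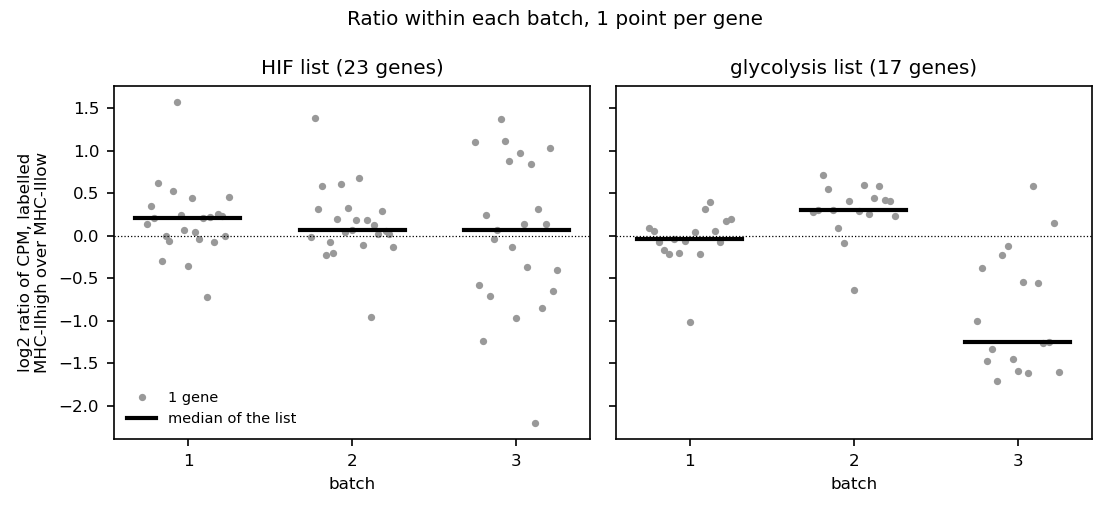
Log2 ratio of CPM, labelled MHC-IIhigh over labelled MHC-IIlow, within each of the 3 batches for the HIF list (23 genes) and the glycolysis list (17 genes). Grey points are genes and black bars the list's median. The glycolysis median stood at -0.04, 0.30 and -1.25 in batches 1, 2 and 3, and the HIF median at 0.21, 0.07 and 0.07.

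Fold changes of the members moved with the GC content of their transcripts. Across the 40 members Spearman's rho between the edgeR log2 fold change and GC content was -0.68, and across 14123 tested genes it was -0.58. These are descriptions across genes, which share the libraries and are not replicates. Without the library labelled MHC-IIlow 3 the values were -0.47 and -0.29, and with the GC offset -0.11 and -0.02. Median GC content was 51.1% for the HIF list, 53.5% for the glycolysis list and 48.7% for all tested genes. With the GC offset the medians of the fold changes were 0.18 for the HIF list (18 positive, 5 negative) and 0.18 for the glycolysis list (12 positive, 5 negative), against 0.01 for all tested genes. Without overlap in GC-adjusted CPM stood 7 HIF members higher and 2 lower, and 6 glycolysis members higher and 1 lower, beside 13.8% of all tested genes higher and 10.3% lower. The GC offset turned the sign of 14 members, among them Pkm (0.21), Eno1 (0.28), Aldoa (0.11), Tpi1 (0.23), Hk1 (0.25) and Slc2a1 (0.08). Gapdh stayed negative at -0.25 and Pfkl at -0.08.

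**Figure D5:**
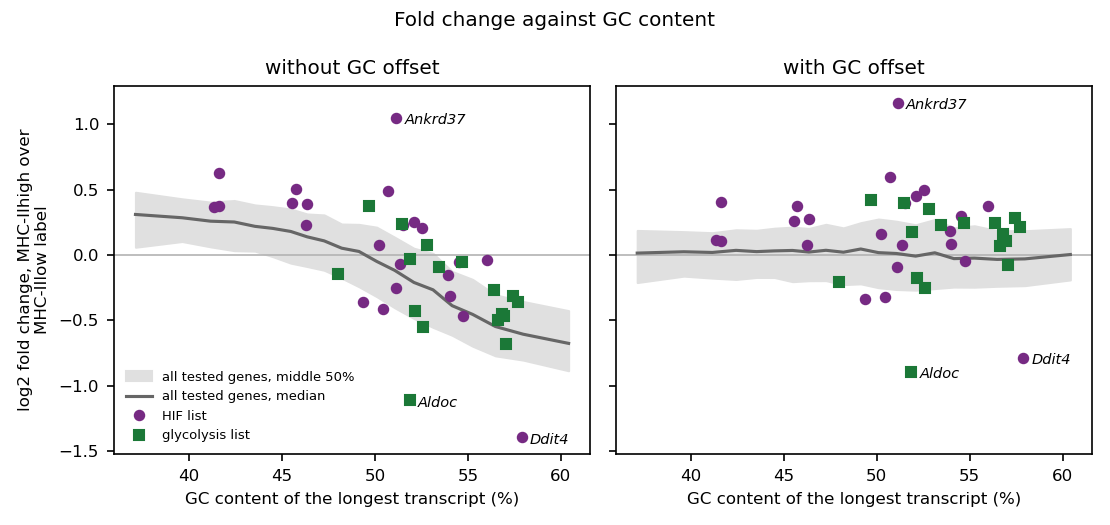
Log2 fold change, labelled MHC-IIhigh over labelled MHC-IIlow, against the GC content (%) of the longest transcript, without (left) and with (right) the GC offset. Purple circles are the HIF list, green squares the glycolysis list, the grey line the median and the band the middle 50% of all tested genes in bins of GC content. The downward trend at rho -0.58 over all genes was at -0.02 with the offset, while Ankrd37 stayed above the band and Ddit4 and Aldoc below it.

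Further genes of both pathways, from lists of related genes that are no members, gave no call by edgeR over all 6 libraries with its default filter and no offset. Calls in other fits are given below. Of 12 HIF regulators 11 were tested, and at an unadjusted p under 0.05 stood Hif1an alone, which encodes the asparagine hydroxylase that blocks HIF's coactivators. Hif1an stood at 23.3, 25.9 and 23.2 CPM in libraries labelled MHC-IIhigh, against 41.0, 27.9 and 45.1 CPM in those labelled MHC-IIlow, without overlap (log2 fold change -0.65, adjusted p = 0.349). Without the library labelled MHC-IIlow 2 it was called lower (adjusted p = 0.0391 by edgeR), against 5.45% of all genes called lower. Siah2, a ubiquitin ligase of the prolyl hydroxylases, averaged 9.78 ± 1.41 CPM under the MHC-IIhigh label and 14.0 ± 4.05 CPM under the MHC-IIlow label. Eloc, elongin C of the von Hippel-Lindau complex, averaged 31.7 ± 7.25 CPM under the MHC-IIhigh label and 22.0 ± 8.68 CPM under the MHC-IIlow label.

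Of 20 further HIF targets 18 were tested, with 3 higher and 1 lower at an unadjusted p under 0.05, against 574 higher and 1130 lower of all 14140 tested genes. Vldlr, a lipoprotein receptor, stood at 4.79, 5.57 and 3.29 CPM in libraries labelled MHC-IIhigh, against 0.959, 1.51 and 1.25 CPM in those labelled MHC-IIlow, without overlap. Its log2 fold change was 1.86 (SE 0.34), and its adjusted p was 0.0845 by edgeR, 0.0347 with the GC offset and 0.000735 by DESeq2. Fam162a, a mitochondrial protein, stood at 26.3, 26.8 and 34.6 CPM in libraries labelled MHC-IIhigh, against 17.8, 22.3 and 14.8 CPM in those labelled MHC-IIlow (log2 fold change 0.67, adjusted p = 0.339). Ak4, a mitochondrial adenylate kinase, averaged 15.4 ± 2.77 CPM under the MHC-IIhigh label and 10.6 ± 0.968 CPM under the MHC-IIlow label. Angptl4, a secreted inhibitor of lipoprotein lipase, averaged 1.20 ± 0.119 CPM under the MHC-IIhigh label and 2.41 ± 0.865 CPM under the MHC-IIlow label. For neither gene did the libraries overlap. Without the library labelled MHC-IIlow 2 edgeR called 3 further targets higher, Vldlr (adjusted p = 0.0277), Fam162a (0.0495) and Tfrc (0.0375), the transferrin receptor, against 1.71% of all genes called higher. With GC offset and block together edgeR called 2 further targets higher, against 1.62% of all genes called higher. The smallest adjusted p of the 2 was 0.0207, and that of Vldlr, 1 of the 2, was 0.0272. The other is not named here. With no filter Vldlr had an adjusted p of 0.000621 by edgeR. Tfrc was chosen after its values were seen.

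Of 30 further genes of glucose metabolism 26 were tested, none with an unadjusted p under 0.05, and Pgam2 had no read in any library. The smallest p belonged to Pygl, glycogen phosphorylase, at 93.6, 104 and 94.5 CPM in libraries labelled MHC-IIhigh against 79.5, 81.4 and 74.1 CPM in those labelled MHC-IIlow, without overlap (log2 fold change 0.31, adjusted p = 0.443). Bpgm, bisphosphoglycerate mutase, averaged 9.48 ± 0.446 CPM under the MHC-IIhigh label and 7.19 ± 0.583 CPM under the MHC-IIlow label. Adpgk, an ADP-dependent glucokinase, averaged 41.7 ± 2.85 CPM under the MHC-IIhigh label and 33.8 ± 2.26 CPM under the MHC-IIlow label. Both were without overlap. Gys1, glycogen synthase, overlapped at 63.6 ± 7.30 CPM under the MHC-IIhigh label and 96.9 ± 47.6 CPM under the MHC-IIlow label. The medians of the log2 fold changes were -0.26 for the regulators, 0.22 for the further targets and 0.09 for the glucose genes.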

How the data were processed

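Each library came with 1 table of raw read counts per Ensembl gene, as deposited by the authors, with 5 summary lines of unassigned reads. Per the submitters' processing notes, FastQC, Trimmomatic, STAR and HTSeq were used on GRCm38, and DESeq2 is named. Tool versions, annotation release and the use of strand in counting were not given in the sources used here. Per the labels' protocols, total RNA was depleted of rRNA and made into stranded libraries. Per library, 35.2% to 49.4% of listed reads fell in no feature, 0.324% to 0.864% were ambiguous and 7.6% to 17.4% aligned to several places; none of these entered library sizes or tests.

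Symbols, exon lengths and GC content came from GENCODE M21 on GRCm38 (55227 of 55487 genes matched). The test was run with edgeR 4.0.16 under R 4.3.3 (default filter on low counts, TMM, quasi-likelihood test, no further term) over all 14140 genes kept, with Benjamini-Hochberg adjustment and a threshold of 0.05. The standard error is the fold change over the square root of F. CPM are counts over TMM-scaled library sizes, and values per length divide them by kilobases of the union of exons. Alternatives were RLE and total-count scaling, DESeq2 1.42.0, limma-voom 3.58.1, the batch number as a block, a GC offset (loess of each library's deviation from a gene's mean log2 CPM over GC content, span 0.4) alone or with that block, no filter on counts, a minimum of 1 CPM in 3 libraries, library sizes without rRNA and mitochondrial genes, and fits without each library in turn or without batch 3. The labels give both libraries of a number the same batch, which pairs them. The deviations from the label means of same-numbered libraries correlated across genes at 0.15, 0.32 and -0.09 for numbers 1, 2 and 3.

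Every member could be named, with values in each library for the members past a threshold in any of the named fits, for up to 8 of each list by p, for Hif1a, Epas1 and Slc2a1 and for the isozymes. From each further list up to 4 genes with the smallest p were named, and Ufsp2, Senp1 and Pitrm1 because they overlap members. The members are given by symbol, and they and the lists were chosen with earlier results of these data known. Counting error falls with depth, and the library labelled MHC-IIlow 3 is the shallowest outside rRNA.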

Additional observations from a re-analysis of the deposited data

How the results depend on the processing

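Called over all genes were 13 higher and 50 lower in the libraries labelled MHC-IIhigh, and this count moved with the setting. Higher and lower calls numbered 121 and 277 by DESeq2, 113 and 436 with no filter, 148 and 208 with the GC offset, 229 and 366 with GC offset and replicate block, and 0 and 28 without batch 3. Total counts gave 8 higher and the replicate block 1 higher. Leaving out each library in turn gave 0 to 246 higher and 8 to 784 lower, the highest without the library labelled MHC-IIlow 2, and 0 higher with 8 to 14 lower without each library labelled MHC-IIhigh or the library labelled MHC-IIlow 1. The cause was not tested.

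HIF members called were 1 higher and 1 lower by DESeq2, with no filter and with GC offset and replicate block, 1 higher and 0 lower with the GC offset, and 0 to 2 higher and 0 to 1 lower with each library left out. Glycolysis members called lower were 1 by DESeq2, with no filter, with the GC offset and with GC offset and replicate block, and 0 to 1 with each library left out. Of all tested genes, 0.856% were called higher and 1.96% lower by DESeq2, and 0.416% and 1.6% with no filter. With the GC offset the shares were 1.05% and 1.47%, and with GC offset and replicate block 1.62% and 2.59%. The 2 higher HIF calls came without the library labelled MHC-IIlow 2, where the shares were 1.71% and 5.45%. The replicate block alone changed no call of a member. The HIF median was 0.53 by total counts, where the median of all tested genes was 0.25. The HIF median was 0.29 with no filter and 0.064 to 0.27 with each library left out. RLE scaling, the filter at 1 CPM and removal of rRNA and mitochondrial genes changed the sign or call of no member.

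Members that did not pass the test had fold changes of the other sign in some settings. Total-count scaling moved the median of all tested genes to 0.25, so a positive value there can lie below that median. Log2 fold changes were, by total counts, Slc2a1 0.15, Egln1 0.26, Egln3 0.20, Car9 0.17, Bhlhe40 0.056, Hilpda 0.14, Cited2 0.29, Hk1 0.15, Hk2 0.33, Hk3 0.037, Gpi1 0.028, Pfkm 0.21, Pfkp 0.15, Tpi1 0.27, Eno1 0.14, Pkm 0.066 and Slc16a3 0.0033. With the GC offset they were Slc2a1 0.080, Egln1 0.37, Egln3 0.076, Car9 0.18, Cited2 0.30, Hk1 0.25, Hk2 0.18, Hk3 0.16, Pfkm 0.25, Aldoa 0.11, Tpi1 0.23, Eno1 0.28, Pkm 0.21 and Slc16a3 0.072. With GC offset and replicate block they were Slc2a1 0.098, Egln1 0.39, Egln3 0.084, Car9 0.14, Cited2 0.33, Hk1 0.25, Hk2 0.18, Hk3 0.20, Pfkm 0.28, Aldoa 0.12, Tpi1 0.23, Eno1 0.29, Pkm 0.21 and Slc16a3 0.081. Without batch 3 they were Slc2a1 0.26, Hilpda 0.0058, Cited2 0.14, Hk1 0.17, Hk2 0.16, Hk3 0.20, Gpi1 0.13, Pfkm 0.028, Aldoa 0.12, Tpi1 0.15, Gapdh 0.074, Eno1 0.24, Pkm 0.13 and Slc16a3 0.21. With no filter they were Egln1 0.034, Cited2 0.024, Hk2 0.054 and Pfkm 0.0074, and by limma-voom Cited2 0.0078 and Hk2 0.0061. With each library left out, ranges that crossed 0 were Epas1 -0.29 to 0.60, Slc2a1 -0.55 to 0.11, Egln1 -0.059 to 0.042, Egln3 -0.19 to 0.12, Car9 -0.25 to 0.022, Hilpda -0.38 to 0.039, Cited2 -0.23 to 0.13, Hk1 -0.46 to 0.063, Hk2 -0.19 to 0.12, Hk3 -0.80 to 0.050, Pfkm -0.12 to 0.072, Tpi1 -0.24 to 0.070, Pgam1 -0.11 to 0.30, Eno1 -0.60 to 0.080 and Slc16a3 -0.81 to 0.043. Isozyme share differences, labelled MHC-IIhigh minus labelled MHC-IIlow, ranged over left-out libraries from -6.45 to 0.156 percentage points for Hk3, from -2.86 to 3.33 for Egln1 and from -0.118 to 0.482 for Hif1a. The 3 libraries a label and the shallow library labelled MHC-IIlow 3 limit the precision of these values.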
